A study of Homo sapiens with 10 samples.

Results

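The immunoglobulin variable segments described here are the genes of the deposited table whose symbol begins with IGHV, IGKV or IGLV and whose counts over the 4 RNA libraries sum to 1 read or more. They number 105 of the 307 variable segments in the table, which lists 50868 genes. The members were thus chosen by their summed counts, so their having reads is a description and not a result. Just inside the rule lay 53 members with 1 read and 19 with 2, and just outside it lay 202 segments with no read in any library. Only 9 members held 30 reads or more, and the median member held 1 read.

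The libraries come from Kasumi-1, an established human myeloid leukemia cell line that carries the t(8;21) translocation and its AML1-ETO fusion. Cells were infected with the retroviral vector MIGR1, either empty or carrying HA-tagged HEB, E2A or E2-2, and all of the RNA came from GFP+ sorted cells 4 days after infection. Each of the groups vector, HEB, E2A and E2-2 is 1 library of the same line, so there is no spread between samples and no test, and a difference between infections cannot be told apart from an effect of the factor. The 3 HA ChIP libraries and their 3 inputs, taken 3 days after infection, were not analysed here.

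An antibody chain is encoded by a variable segment that a developing B cell joins to a joining segment, with a diversity segment between them in the heavy chain. Unjoined segments can be transcribed on their own, which is called germline transcription and is known to accompany opening of a locus before recombination. E proteins are basic helix-loop-helix factors made from TCF12 (HEB), TCF3 (E2A) and TCF4 (E2-2), they bind E-boxes such as those in the immunoglobulin enhancers, and B lymphopoiesis depends on E2A. The heavy chain locus lies on chromosome 14, the kappa locus on chromosome 2 and the lambda locus on chromosome 22. Orphons are variable segments that lie outside these loci and cannot supply an antibody chain by the normal route.

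The libraries held 14816708 to 17673090 counts, and 3 reads, the floor used in place of a 0, stood for 0.170 to 0.198 CPM (counts per 1000000 after TMM scaling). The genes of the factors followed the labels: TCF4 had 12484 reads in the E2-2 library and at most 4 elsewhere, TCF3 had 23186 in E2A and 3039 to 4201 elsewhere, and TCF12 had 13842 in HEB and 2206 to 2971 elsewhere. All 7 Kasumi-1 and myeloid progenitor markers had reads in every library, with a summed level of 13541 to 21964 CPM. Against vector, CD33, a myeloid surface receptor, was the 1 gene of that list called, higher in HEB (3.18-fold), E2A (3.03-fold) and E2-2 (4.08-fold). The 11 B cell markers summed to 31.0 to 36.7 CPM, with MS4A1 (CD20) at 0, 0, 0 and 1 read in vector, HEB, E2A and E2-2. BLK, a B cell kinase, had 0 reads in all 4 libraries. CD22, an inhibitory receptor of B cells, had 28, 12, 28 and 9 reads and was called lower in HEB (2.48-fold) and E2-2 (3.02-fold), while CD79A, described below, was called higher in E2A and E2-2. The 9 T cell markers summed to 5.19 CPM in vector and 3.23 to 3.57 CPM with the factors.

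Summed over all 105 members, the variable segments held 41 reads in vector, 162 in HEB, 525 in E2A and 540 in E2-2, or 2.63, 9.79, 29.7 and 35.6 CPM. The vector library was the lowest and E2-2 and E2A were the highest. The sum was 13.5-fold higher in E2-2 than in vector (95% exact interval 9.85 to 19.1), 11.3-fold higher in E2A (8.22 to 15.9) and 3.72-fold higher in HEB (2.63 to 5.38). These 3 comparisons share the vector library. The intervals here and below are conditional binomial (Clopper-Pearson) and cover counting error only, since without molecular identifiers a read may be a PCR copy. In these bulk libraries a change in the number of cells that transcribe a segment and a change in the RNA per cell cannot be told apart.

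The factors were also set against each other. E2A and E2-2 exceeded HEB, by 3.04-fold (2.54 to 3.64) and 3.64-fold (3.05 to 4.36). The sum in E2-2 was 1.20-fold that in E2A (1.06 to 1.35), a small excess that counting error alone does not cover but whose size relative to the spread between cultures is not known.

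More segments also had a read. Of the 105 members, 25 had at least 1 read in vector, 40 in HEB, 50 in E2A and 60 in E2-2. Between E2-2 and vector, 57 members had the higher CPM in E2-2 and 18 in vector, and 30 had no read in either. For E2A the numbers were 45 higher, 19 lower and 41 without reads, and for HEB 34, 24 and 47. Most of these differences rest on 1 or 2 reads and say nothing of single segments.

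By class, the table holds 106 heavy chain segments of which 56 are members, 76 kappa with 22 members, 71 lambda with 14 members and 54 orphons with 13 members. Heavy chain segments held 23, 36, 138 and 171 reads in vector, HEB, E2A and E2-2. Kappa segments held 7, 49, 150 and 127, lambda segments 2, 6, 14 and 49, and orphons 9, 71, 223 and 193. Vector was the lowest library in each class, and by reads E2-2 was the highest for heavy and lambda segments and E2A for kappa segments and orphons. In CPM, E2A and E2-2 lay close together for kappa segments (8.49 and 8.37) and orphons (12.6 and 12.7).

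Against vector, the heavy chain sum was 7.65-fold higher in E2-2 (4.93 to 12.4) and 5.30-fold higher in E2A (3.39 to 8.63). In HEB its ratio of 1.48 (0.851 to 2.61) was not distinguishable from 1 at this depth. Kappa segments were 18.7-fold higher in E2-2 (8.80 to 47.4), 18.9-fold higher in E2A (8.96 to 47.9) and 6.60-fold higher in HEB (2.97 to 17.3). The orphons gave 22.1-fold (11.4 to 49.0), 21.9-fold (11.3 to 48.5) and 7.44-fold (3.70 to 16.9) in the same order, almost wholly through 1 segment described next.

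The lambda sum rests on 2 reads in vector, so its ratios are loose: 25.2 in E2-2 (6.61 to 214), 6.18 in E2A (1.42 to 56.0) and 2.83 in HEB (0.506 to 28.6). Set directly against E2A, E2-2 was higher for lambda by 4.08-fold (2.22 to 8.00) and for heavy chain segments by 1.44-fold (1.15 to 1.82). Kappa segments at 0.986 (0.773 to 1.26) and orphons at 1.01 (0.827 to 1.23) were not distinguishable between these 2 libraries.

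**Figure D1:**
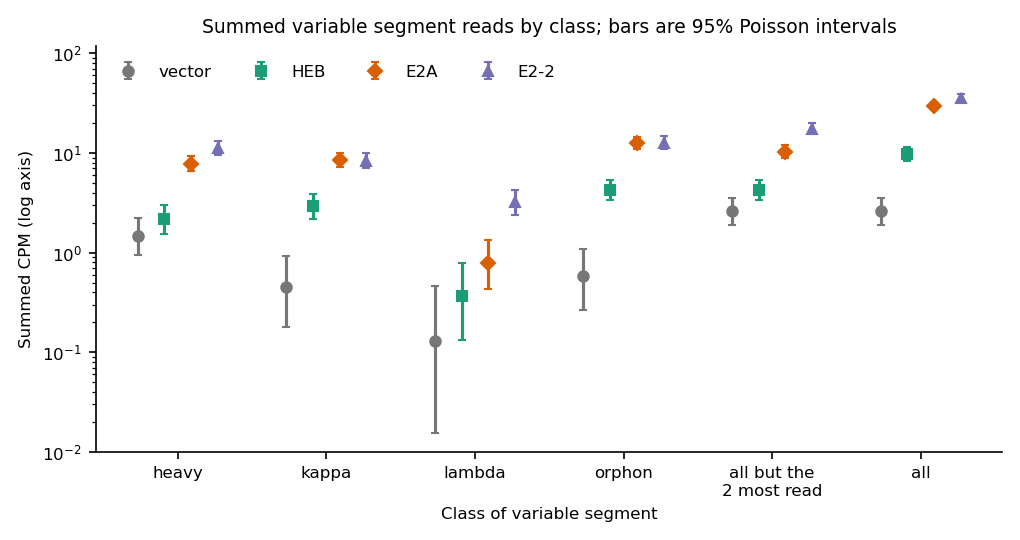
Summed CPM (log axis) of variable segments by class in the 4 libraries, 1 library per group, with 95% Poisson intervals that cover counting error only. Vector is lowest in every class, and over all members the levels run from 2.63 CPM in vector to 35.6 CPM in E2-2.

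Calls needed at least 30 reads in the pair of libraries, a TMM-scaled change of 2-fold or more in either direction and an interval that did not include 1. Against vector, 3 members reached 30 reads for E2-2 and the 3 were called higher, where 8.45% of all tested genes were called higher and 3.55% lower. For E2A 2 of 2 members were called higher, against 4.89% of all tested genes (lower 1.58%), and for HEB 1 of 1, against 2.55% (lower 1.23%). No member was called lower. Each of these members had 0 reads in vector and reached the read minimum through the E protein library alone, so it had to differ and these counts support nothing by themselves.

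With a minimum of 10 reads, 10 of 11 members were called higher in E2-2, 6 of 9 in E2A and 2 of 4 in HEB, where the shares over all tested genes were 9.08%, 5.53% and 3.18%. No member was called lower in these 3 comparisons, where 3.87%, 2% and 1.61% of all tested genes were. All but 1 of the called members, IGHV5-78 in E2-2, had 0 reads in vector and again passed only through the E protein library, so these counts too support nothing by themselves. The other 94 members for E2-2, 96 for E2A and 101 for HEB had too few reads for this rule.

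IGKV3OR2-268, an orphon of the kappa family (ENSG00000233999, chromosome 2, 87338511 to 87339035), held the most reads of any member. It had 0 reads in vector, 62 in HEB, 217 in E2A and 187 in E2-2, and the authors' FPKM values for it were 0, 10.5, 35.1 and 36.1. It was thus absent from the counts of 1 library and well covered in the other 3. Its level was at least 19.5-fold higher in HEB, at least 63.9-fold higher in E2A and at least 64.1-fold higher in E2-2 than the vector floor of 3 reads. E2-2 and E2A were not distinguishable, with a ratio of 1.00 (0.821 to 1.23), and both exceeded HEB, E2-2 by 3.29-fold (2.46 to 4.46) and E2A by 3.28-fold (2.46 to 4.42).

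IGKV3D-7, a segment of the distal copy of the kappa locus (ENSG00000228325, chromosome 2, 90234812 to 90235370), followed with 0, 29, 126 and 87 reads. The authors' FPKM values for it were 0, 4.50, 18.6 and 15.3. Again vector had none and E2A and E2-2 had the most. Its level was at least 37.1-fold higher in E2A and at least 29.8-fold higher in E2-2 than in vector. HEB gave at least 9.11-fold, but its 29 reads lie 1 below the minimum and it was not called. E2A exceeded HEB by 4.07-fold (2.70 to 6.32) and E2-2 exceeded HEB by 3.27-fold (2.13 to 5.17).

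These 2 segments carry 708 of the 1268 reads of the 105 members, or 55.8%. Of the reads on the pair, IGKV3OR2-268 took 68.1% in HEB (exact binomial interval 57.5 to 77.5), 63.3% in E2A (57.9 to 68.4) and 68.2% in E2-2 (62.4 to 73.7). The intervals of the 3 libraries overlap. Both belong to the IGKV3 family, whose members are close in sequence, and how the authors' counting placed reads that match more than 1 segment is not given in the sources used here, so the division of reads between the 2 segments is uncertain. IGKV3-7, the proximal counterpart of IGKV3D-7, had 0, 6, 9 and 8 reads.

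Without these 2 members the summed reads were 41, 71, 182 and 266. All 41 vector reads lie on the other members. The sum without them was 6.67-fold higher in E2-2 than in vector (4.79 to 9.51), 3.92-fold higher in E2A (2.78 to 5.64) and 1.63-fold higher in HEB (1.10 to 2.46), and E2-2 exceeded E2A by 1.70-fold (1.40 to 2.07). Among members with over 3 and under 30 reads the sums were 16, 16, 82 and 85, so E2-2 and E2A were 5.46-fold (3.18 to 9.99) and 4.52-fold (2.63 to 8.28) higher and HEB had a ratio of 0.943 (0.441 to 2.01). Members with 3 reads or fewer summed to 16, 24, 26 and 40, which gave 2.57-fold in E2-2 (1.41 to 4.92), while the ratios of 1.43 in E2A (0.741 to 2.86) and 1.41 in HEB (0.721 to 2.85) were not distinguishable from 1. Since a member of 30 reads or more can reach that sum only where some library is high, these bands describe where the reads lie and are no test.

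**Figure D2:**
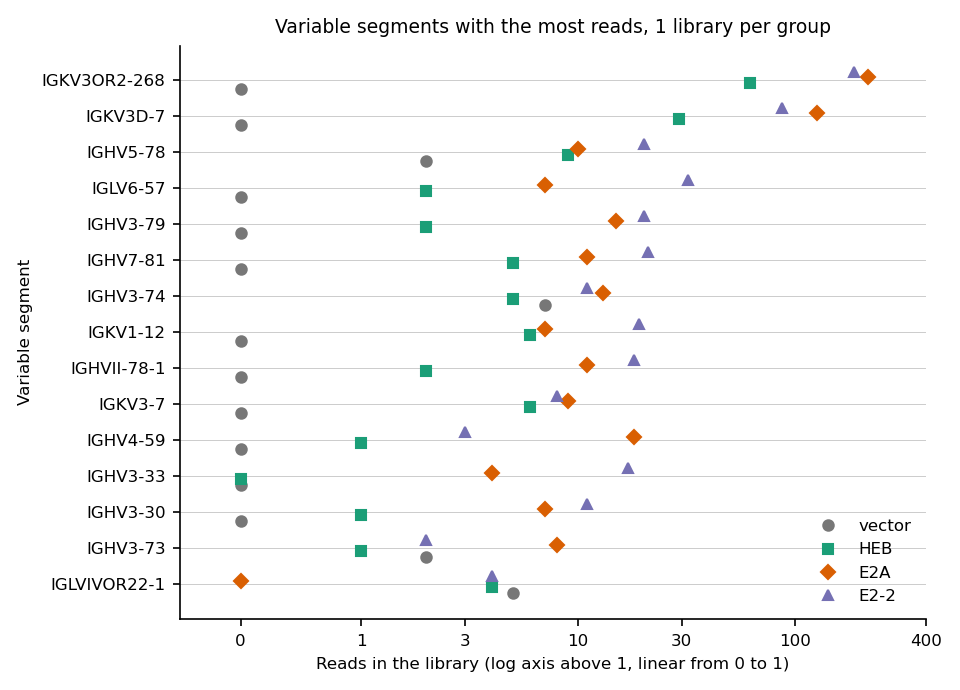
Reads in each library for the 15 variable segments with the most reads, on an axis that is linear from 0 to 1 and logarithmic above. The vector points lie at 0 for 11 of the 15 segments, and IGKV3OR2-268 reaches 217 reads in E2A.

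The surroundings of IGKV3OR2-268 were read from the same table. Its nearest listed neighbours, RP11-223J6.1 at 36.3 kb and AC068279.3 at 40.8 kb, had 0 reads in all libraries and 0, 1, 0 and 0 reads. AC133644.2, a noncoding RNA gene listed as LINC01943 in the symbol table whose midpoint lies 111 kb away, had 25 reads in vector, 141 in HEB, 368 in E2A and 294 in E2-2. It was called higher in each, by 5.32-fold in HEB (3.46 to 8.49), 13.0-fold in E2A (8.66 to 20.3) and 12.1-fold in E2-2 (8.03 to 19.0), and like the orphon it was not distinguishable between E2-2 and E2A, with a ratio of 0.931 (0.796 to 1.09). LINC00152, another noncoding RNA gene that overlaps its span, had 41, 90, 97 and 119 reads and was called higher by 2.07-fold, 2.09-fold and 2.99-fold.

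Not every gene nearby moved that way. AC083899.3, whose midpoint lies on the other side at -178 kb, had 399, 443, 418 and 262 reads and was not called in any comparison with vector. RGPD1, at -378 kb, had 929, 770, 1129 and 800 reads. CD8B, a T cell coreceptor chain at -500 kb, had few reads but was again lowest in vector, with 3, 12, 18 and 19. The neighbours AC133644.2, LINC00152, AC083899.3, RGPD1 and CD8B were chosen after their values were seen, from the genes within 500 kb. IGKV3D-7 lies between IGKV1D-8, with 0 reads in all 4 libraries, and the orphon IGKV1OR2-118, with 0, 0, 1 and 0.

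**Figure D3:**
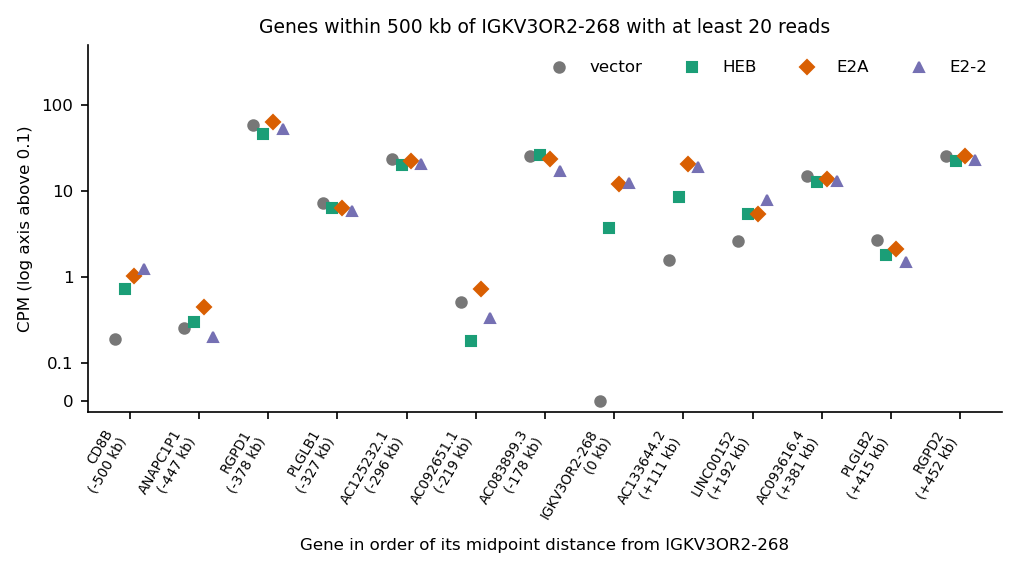
CPM in the 4 libraries of the genes within 500 kb of IGKV3OR2-268 that held at least 20 reads, in order of distance, on an axis that is logarithmic above 0.1. Vector is lowest for IGKV3OR2-268 and for AC133644.2 and LINC00152 on one side of it, and also for CD8B at the far end of the other side, while the libraries lie close together for genes such as RGPD1 and RGPD2.

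The other kappa segment with 30 reads or more was IGKV1-12, with 0, 6, 7 and 19 reads. Its annotated span of 183229 bases (chromosome 2, 88857517 to 89040745) overlaps 14 other genes, among them the constant gene IGKC and IGKV3-7, so its reads cannot be assigned with certainty to this segment. E2-2 gave at least 6.51-fold over the vector floor, E2A at least 2.06-fold and HEB at least 1.89-fold, none of them with the 30 reads needed for a call. Its neighbours in the table were ANKRD36BP2, with 5, 1, 4 and 2 reads, and IGKV1-13, with 0.

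In the lambda locus, IGLV6-57 (chromosome 22, 22195713 to 22196460) had 0 reads in vector, 2 in HEB, 7 in E2A and 32 in E2-2. E2-2 stood above the other 3 libraries. Its level there was at least 11.0-fold higher than in vector, 17.5-fold higher than in HEB (4.45 to 150) and 5.33-fold higher than in E2A (2.31 to 14.3), and the 3 differences were called. The member reached the minimum in each pair through E2-2 alone.

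The next lambda segments, IGLVI-56 at a distance of 2.10 kb with 0, 0, 0 and 5 reads and IGLV11-55 with 0, 0, 5 and 3, had no read in vector or HEB. Together with IGLV6-57 they held 0, 2, 12 and 40 reads, and the other 11 lambda members held 2, 4, 2 and 9. This trio was put together after its values were seen. On the other side of IGLV6-57 lies BMP6P1, 9.09 kb away, with no read in any library.

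In direct comparison, 3 of the 6 members with at least 30 reads were called higher in E2-2 than in E2A, where 3.63% of all tested genes were higher and 1.61% lower. They were IGLV6-57 and the heavy chain segments IGHV5-78 and IGHV7-81. The 3 others were IGKV3OR2-268, IGKV3D-7 and IGHV3-79. At a minimum of 10 reads, 5 members were called higher and 1 lower of 14, with 4.09% and 2.01% over all tested genes. Against HEB, 3 of 3 members were called higher in E2-2 (6.09% of all tested genes, lower 1.57%) and 2 of 2 in E2A (2.38%, lower 0.696%). With 10 reads the numbers were 10 of 12 in E2-2 (6.76%, lower 1.8%) and 5 of 10 in E2A (3.13%, lower 1.09%), and no member was lower. At 30 reads the members called against HEB, apart from IGKV3OR2-268, passed only through the E2-2 or E2A library. At 10 reads the same held for all of them but IGKV3OR2-268 and IGKV3D-7. In the pair of E2-2 and E2A, IGLV6-57, IGHV5-78 and IGHV7-81 had 32, 20 and 21 reads in E2-2 and 7, 10 and 11 in E2A. Each reached 30 reads only with its E2-2 reads. At 10 reads the members called in that pair, apart from IGHV5-78 and IGHV7-81, passed only through the higher library. The counts of calls between the factors thus support nothing by themselves.

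The member lower in E2-2 than in E2A was IGHV4-59, which overlaps IGHV3-49 in the annotation. It had 0 reads in vector, 1 in HEB, 18 in E2A and 3 in E2-2, so E2A stood apart from the other libraries. E2-2 was 5.15-fold lower than E2A (1.50 to 27.3), on 21 reads. IGHV4-59 and the segments with under 30 reads that follow were chosen after their values were seen.

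The 5 heavy chain members with 30 reads or more all lie toward the end of the locus farthest from the constant genes. IGHV5-78, a pseudogene in RefSeq (chromosome 14, 106851123 to 106851417), had 2, 9, 10 and 20 reads. It was 2.33-fold higher in E2-2 than in E2A (1.04 to 5.57), and its ratio to vector in E2-2 was 10.3 (2.50 to 90.8), on 22 reads. IGHV7-81 (chromosome 14, 106874583 to 106875071) had 0, 5, 11 and 21 reads and was 2.22-fold higher in E2-2 than in E2A (1.03 to 5.11). Both of those intervals reach almost down to 1.

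Between them lie 2 more pseudogenes. IGHVII-78-1 (chromosome 14, 106865627 to 106865895) had 0, 2, 11 and 18 reads, at least 6.17-fold higher in E2-2 and at least 3.24-fold higher in E2A than the vector floor. IGHV3-79 (chromosome 14, 106867660 to 106868092) had 0, 2, 15 and 20 reads, at least 6.86-fold and at least 4.41-fold. The order of the libraries was the same for these 4 neighbouring segments, lowest in vector and highest in E2-2, though none of the 4 reached 30 reads with vector. The 4 together, a set chosen after its values were seen, held 2, 18, 47 and 79 reads.

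The segments just beyond them were almost without reads. IGHVIII-82, 4.49 kb past IGHV7-81 and the last of the locus, had 0 reads in all libraries, and IGHVIII-76-1, on the other side of IGHV5-78, had 1, 1, 1 and 2. IGHV3-74 (chromosome 14, 106810442 to 106811131) went another way, with 7, 5, 13 and 11 reads. Its ratios to vector of 1.62 in E2-2 (0.572 to 4.92), 1.64 in E2A (0.608 to 4.85) and 0.673 in HEB (0.168 to 2.46) were not distinguishable from 1. IGHV3-73 beside it had 2, 1, 8 and 2 reads, and IGHVII-74-1 had none.

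The 106 heavy chain segments of the table span 940 kb, from IGHV6-1 nearest the constant genes to IGHVIII-82 (chromosome 14, 105939756 to 106879812). Cut into 4 equal stretches of 235 kb, the nearest held 2, 3, 5 and 14 reads in vector, HEB, E2A and E2-2. The next held 2, 4, 25 and 45, the third 2, 3, 25 and 7, and the farthest 17, 26, 83 and 105. The farthest stretch thus had the most reads in each of the 4 libraries, vector included, with 16 of its 26 segments having a read somewhere. The third was the only one in which E2A had more reads than E2-2, and 18 of its 25 E2A reads were those of IGHV4-59.

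In the second of these stretches the reads of E2A and E2-2 lay largely on 7 neighbouring segments from IGHV3-29 to IGHV3-33, also chosen after their values were seen. They held 0 reads in vector, 2 in HEB, 21 in E2A and 40 in E2-2, at least 6.18-fold higher in E2A and at least 13.7-fold higher in E2-2 than the vector floor, and 2.22-fold higher in E2-2 than in E2A (1.28 to 3.96). Within them IGHV3-33 had 0, 0, 4 and 17 reads and IGHV3-30 had 0, 1, 7 and 11. Both are segments that can be used in antibodies and are close relatives, so their reads may be divided between them.

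**Figure D4:**
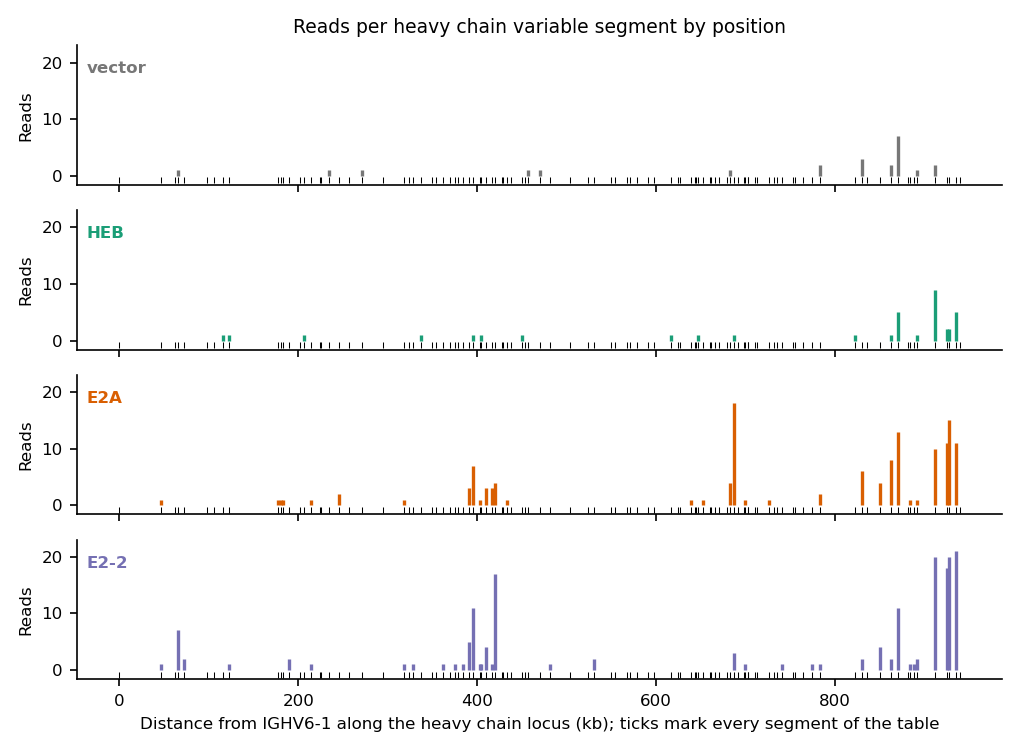
Reads per heavy chain variable segment in each library against distance in kb from IGHV6-1, with ticks for all 106 segments of the table. Reads gather at the far end, where 4 neighbouring segments rise from 2 reads in vector to 79 in E2-2, and a second group from IGHV3-29 to IGHV3-33 holds 40 reads in E2-2 and none in vector.

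Having an intact coding segment was not a condition for reads. RefSeq lists 67 of the members as V segment genes and 34 as pseudogenes, and 4 had no match. Among all segments of the table, with or without reads, 126 were V segment genes and 164 were pseudogenes. A larger share of the genes than of the pseudogenes thus had a read. The member genes held 26, 73, 250 and 264 reads and the member pseudogenes 8, 23, 54 and 81, lowest in vector and highest in E2-2 in both. Of the 13 orphon members only IGKV3OR2-268 had 30 reads. IGLVIVOR22-1, an orphon of the lambda family, had 5 reads in vector, 4 in HEB, 0 in E2A and 4 in E2-2 and did not follow the order of the sums.

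Diversity, joining and constant genes of the same loci were sought by symbol, and the 22 genes found had few reads. None of them was a heavy chain diversity segment. Of the 22, 15 had a read, and they summed to 6, 10, 30 and 46 reads in vector, HEB, E2A and E2-2. IGKC, the kappa constant gene, had 0, 3, 24 and 29 reads. It was at least 7.06-fold higher in E2A and at least 9.94-fold higher in E2-2 than in vector, both under 30 reads, and was called 10.5-fold higher in E2-2 than in HEB (3.27 to 54.1). In the pair with HEB it reached the read minimum only with its 29 reads in E2-2. The annotated span of IGKC overlaps variable segments, among them IGKV3-7 and IGKV1-12. Its reads therefore cannot be assigned with certainty to the constant gene. IGHM, the constant gene of IgM, had 0, 0, 3 and 10 reads.

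KIAA0125, now named FAM30A, is a noncoding RNA gene just outside the variable segments of the heavy chain locus on the side of the constant genes (chromosome 14, 105917979 to 105932642). It had 0 reads in vector, 1 in HEB, 17 in E2A and 31 in E2-2, and was called at least 10.6-fold higher in E2-2 than in vector and 2.12-fold higher than in E2A (1.14 to 4.09). In each of these pairs KIAA0125 reached the read minimum through E2-2 alone. IGHM and KIAA0125 were chosen after their values were seen. Of 54 other genes inside the spans of the 3 loci, 4 had the reads for a call against vector. LL22NC03-2H8.5 in the lambda locus had 18, 17, 59 and 57 reads and was called higher in E2A (2.89-fold, 1.68 to 5.21) and E2-2 (3.26-fold, 1.89 to 5.88), with 0.890 in HEB (0.431 to 1.83). CH17-264L24.1 was called higher in E2-2 alone, at 2.03-fold (1.33 to 3.14), with 1.97 in E2A and 1.72 in HEB.

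The enzymes that join the segments were described by a list of 15 genes, 12 of them with 30 reads. RAG1, a subunit of the recombinase that cuts at the segments, had 12 reads in vector, 29 in HEB, 33 in E2A and 104 in E2-2. It was called higher in each, by 2.28-fold (1.13 to 4.90), 2.43-fold (1.22 to 5.16) and 8.91-fold (4.89 to 17.8). In each pair with vector RAG1 reached the read minimum only with its reads in the E protein library. RAG2, its partner, without which the recombinase does not cut, had 1, 0, 3 and 8 reads, and DNTT, which adds bases at the joints, had 0, 1, 0 and 0. POLM, a polymerase of end joining, was 2.04-fold higher in E2-2 (1.76 to 2.36). No member of the list was called lower, and its median log2 fold was 0.19 in E2-2, 0.12 in E2A and 0.01 in HEB, beside -0.03, -0.01 and 0.01 over all tested genes.

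Of 10 surrogate light chain and receptor signalling genes, 6 had the reads for a call, and 3 were called higher in E2-2, 3 in E2A and 1 in HEB, with none lower. Over all tested genes 8.45%, 4.89% and 2.55% were called higher and 3.55%, 1.58% and 1.23% lower. IGLL1, the surrogate light chain component that pairs with a heavy chain in pre-B cells, had 601, 1199, 4569 and 2558 reads, 6.71-fold higher in E2A (6.16 to 7.32) and 4.38-fold higher in E2-2 (4.00 to 4.79), with 1.88 in HEB (1.70 to 2.08). VPREB1, its partner, had 1, 1, 1 and 4. CD79A, a signalling chain of the B cell receptor, had 30, 35, 75 and 141 reads, and SYK, a kinase downstream of it, had 35, 75, 150 and 266. The list's median log2 fold was 1.00 in E2-2, 0.68 in E2A and 0.09 in HEB.

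Among 18 B lineage transcription factors, the transduced genes included, 5 were called higher and 1 lower in E2-2 of 13 tested, 2 and 0 in E2A of 12, and 1 and 1 in HEB of 11. Of all tested genes 8.45% were called higher and 3.55% lower in E2-2, 4.89% and 1.58% in E2A, and 2.55% and 1.23% in HEB, and the list's calls include the gene of each transduced factor. SPI1, a factor of myeloid and B cells, had 1504, 2315, 2784 and 2945 reads and was called at 2.01-fold in E2-2 (1.89 to 2.14). PAX5, which sets B cell identity and was chosen after its values were seen, had 64, 64, 95 and 182 reads and was called at 2.92-fold in E2-2 (2.19 to 3.95). The gene called lower, in E2-2 and in HEB, was POU2F2. EBF1, another factor of the list, had 0, 2, 0 and 2 reads. POU2F2 and EBF1 were also chosen after their values were seen.

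Because variable segments are most abundant in plasma cells, markers of that cell type were read beside them. The 8 plasma cell markers summed to 317 CPM in vector, 360 in HEB, 408 in E2A and 504 in E2-2. The sum was 4941 reads in vector and 7644 in E2-2, mostly on genes of the list that were not called. Against vector, 3 of 6 tested were called higher in E2-2, 2 of 6 in E2A and 1 of 5 in HEB, with none lower. Over all tested genes 8.45%, 4.89% and 2.55% were called higher and 3.55%, 1.58% and 1.23% lower. PRDM1, the regulator of plasma cell differentiation that other cell types also express, rose from 2 reads in vector to 146, 264 and 563, and MZB1, a chaperone of antibody assembly, had 12, 16, 125 and 123. Where tested, PRDM1 and MZB1 reached the read minimum only through the E protein library, so the counts of calls in this list are no test. IRF4, a factor needed for plasma cells, had 33, 36, 29 and 90 reads and was called higher in E2-2, at 2.81-fold (1.86 to 4.32). JCHAIN, which links antibody units, had 1, 2, 0 and 3 reads, and TNFRSF17 (BCMA), a plasma cell receptor, had 0, 0, 1 and 2. DERL3, also of the list and chosen after its values were seen, had 246, 297, 285 and 281 reads and was not called. The part of these genes in the variable segment counts was not tested.

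**Figure D5:**
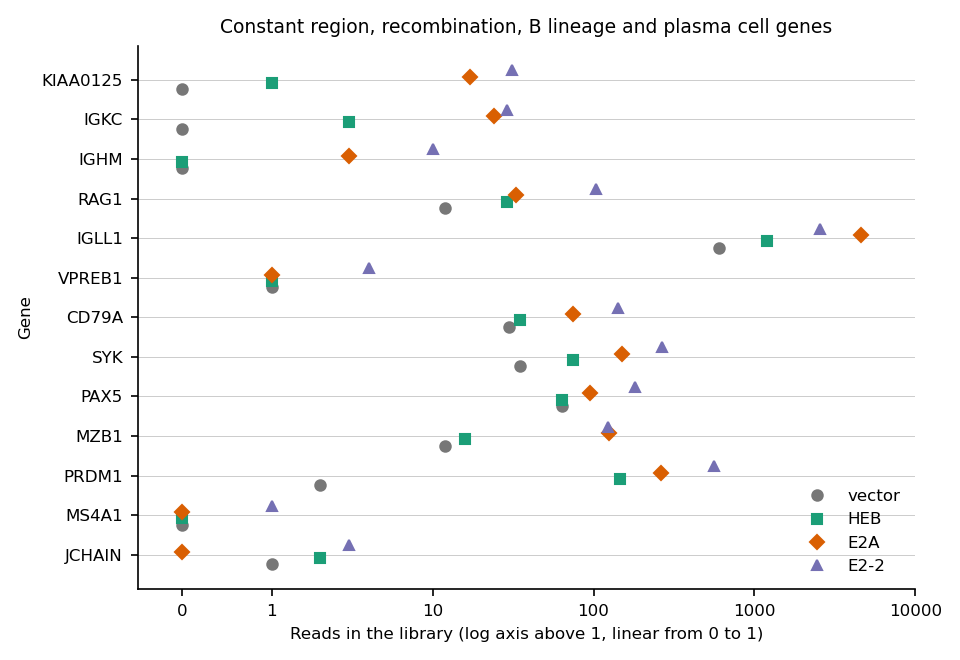
Reads in the 4 libraries for constant region, recombination, surrogate light chain, B lineage and plasma cell genes, on an axis that is linear from 0 to 1 and logarithmic above. RAG1, SYK, CD79A and PRDM1 are highest in E2-2, IGLL1 is highest in E2A, and MS4A1 and JCHAIN stay at 3 reads or fewer.

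No promoter of the 105 members is in the RefSeq promoter table used here. The promoters of 3 genes described beside them are shown, because E proteins bind E-boxes and because FAM30A lies beside the heavy chain segments, while VPREB1 and IGLL1, on chromosome 22 with the lambda segments, encode the surrogate light chain and differ in reads. Each runs from 250 bases before to 50 bases after the gene's start, in GRCh38.p14, with every E-box of the form CANNTG in capitals.
FAM30A: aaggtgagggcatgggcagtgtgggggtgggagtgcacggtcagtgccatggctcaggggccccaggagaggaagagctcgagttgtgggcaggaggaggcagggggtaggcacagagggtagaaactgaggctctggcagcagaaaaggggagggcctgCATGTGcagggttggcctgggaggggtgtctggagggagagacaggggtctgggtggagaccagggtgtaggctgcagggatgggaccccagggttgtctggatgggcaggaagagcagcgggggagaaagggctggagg
VPREB1: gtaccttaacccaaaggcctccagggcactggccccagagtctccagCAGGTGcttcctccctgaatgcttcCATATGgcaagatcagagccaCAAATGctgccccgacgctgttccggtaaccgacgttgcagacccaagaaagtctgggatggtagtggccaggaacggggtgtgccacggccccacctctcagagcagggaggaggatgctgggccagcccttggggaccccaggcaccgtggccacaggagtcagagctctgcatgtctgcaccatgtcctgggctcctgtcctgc
IGLL1: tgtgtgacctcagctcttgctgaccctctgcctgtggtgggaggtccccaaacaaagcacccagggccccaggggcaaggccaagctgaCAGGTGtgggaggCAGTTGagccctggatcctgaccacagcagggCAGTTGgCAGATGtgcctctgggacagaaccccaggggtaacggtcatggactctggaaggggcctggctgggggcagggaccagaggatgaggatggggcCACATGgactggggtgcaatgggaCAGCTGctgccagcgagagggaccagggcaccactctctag

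The FAM30A window (chromosome 14, 105917729 to 105918028, plus strand) holds 1 CANNTG, the VPREB1 window (chromosome 22, 22244536 to 22244835, plus strand) holds 3 and the IGLL1 window (chromosome 22, 23580241 to 23580540, minus strand) holds 6. The CANNTG pattern was searched on both strands and includes 2 narrower forms. The form CAGGTG, also searched on both strands, occurs 1 time in VPREB1 and 1 time in IGLL1, and the form CAGCTG occurs 1 time in IGLL1. Of 35116 promoter windows of the same length, 68.7% hold a CANNTG, 20.6% a CAGGTG and 17.9% a CAGCTG. The octamer ATTTGCAT, a motif known from variable segment promoters, is in none of the 3 windows and in 1.77% of all. A match describes the letters and is not a binding site.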

How the data were processed

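RNA was measured in 4 Kasumi-1 libraries, 1 per group, named by the labels, with 14816708 to 17673090 counts each. The authors deposited 1 table with a whole-number read count and an FPKM value per gene and library, per the file headers. Among the tools in the submitters' processing notes are HTSeq 0.9.1, a read counter, and the aligners TopHat2 2.0.9 and Bowtie2 2.2.9. Both hg19 and hg38 are listed there as builds, with no roles. Not given in the sources used here are the annotation, the use of strand and the handling of reads that match several places, so overlapping genes, antisense genes and close copies are uncertain. Positions are those of the table, and 100 of 101 members found by symbol overlapped their RefSeq gene in GRCh38.p14. All 307 identifiers matched the symbol table.

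TMM factors for the counts came from edgeR 4.0.16 (R 4.3.3), computed over all 4 RNA libraries. With 1 library per group there is no test and no p-value. A call needs a fold of at least 2, a 95% exact conditional binomial interval that excludes 1 and at least 30 reads in the pair. Where 1 library had 0 reads, 3 reads stood in for them and the ratio is written as a bound (at least). Pairs with 3 reads or fewer in both libraries have no ratio. The rule was tested on simulated Poisson counts of genes with at least 100 reads in the pair. It was thus not tested at the low counts of most members or with spread between cultures. Python 3.11.15, numpy 2.4.6, scipy 1.17.1, pandas 2.3.3 and matplotlib 3.10.9 were used, and DESeq2 1.42.0 gave alternative size factors. Named are members with 30 reads or more over the 4 libraries or with a call, up to 4 called genes of each other list, and nearest neighbours. Other names were chosen after their values were seen, as the text says at each or, for RAG2, DNTT, VPREB1, MS4A1, BLK, JCHAIN and TNFRSF17, as partners or defining markers without a call. The members and lists were chosen with earlier results of these data known. No recombination signal was searched, since no genome was used here. The result for 1 marker gene is not reported here.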

Additional observations from a re-analysis of the deposited data

How the results depend on the processing

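Scaling by total counts or by DESeq2 size factors, the authors' FPKM, and leaving out segments that overlap another gene kept each count of called members within 1.5 times. Leaving out orphons, or keeping only the 67 RefSeq V segment genes, which drops the pseudogenes and the unmatched IGKV3OR2-268 together, moved no summed fold beyond its interval. The read minimum sets the counts. In the order E2-2, E2A and HEB against vector, E2-2 against E2A, E2-2 against HEB and E2A against HEB, the calls numbered 3, 2, 1, 3, 3 and 2 as reported. They were 10, 6, 2, 6, 10 and 5 with a minimum of 10 reads, and 11, 10, 2, 7, 11 and 6 with none. With a minimum of 100 reads, E2-2 had 1 call against vector and 0 against E2A, and HEB against vector had no member to test.

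The size of the summed folds rests on few segments. Without IGKV3OR2-268 they were 8.86, 6.63 and 2.30 for E2-2, E2A and HEB against vector. Without the 2 members with most reads, an alternative added after seeing the data, they were 6.67, 3.92 and 1.63, with 1.70 for E2-2 against E2A and 2.40 for E2A against HEB. Over members with under 30 reads, also added after seeing the data, they were 4.02, 2.98 and 1.18, the last with an interval of 0.722 to 1.94 that includes 1, and 2.53 for E2A against HEB. The summed fold stayed above 1 against vector under each of these alternatives, but for HEB it rests on the most-read members: those with over 3 and under 30 reads gave 0.943 (0.441 to 2.01). Depth limits the rest: 77 of 105 members held 3 reads or fewer. No paired analysis was possible because each group has 1 library.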

Other observations

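Variable segments of the T cell receptor, which are built and joined in the same way in developing T cells, also had more reads with the E proteins. Of 139 such segments listed, 91 had a read, and they summed to 410 reads in vector, 987 in HEB, 1478 in E2A and 1648 in E2-2. With at least 30 reads in the pair, 11 of 16 were called higher and 0 lower in E2-2, 9 of 17 higher and 1 lower in E2A, and 9 of 16 higher and 1 lower in HEB. Of all tested genes 8.45%, 4.89% and 2.55% were called higher and 3.55%, 1.58% and 1.23% lower. Some of these segments reached the read minimum only through the E protein library, so these counts describe the segments and are no test. Their median log2 fold was 1.88 in E2-2, 1.24 in E2A and 1.26 in HEB, beside -0.03, -0.01 and 0.01 over all tested genes.

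The 4 called segments with the most reads lie in the beta locus on chromosome 7. TRBV5-4 had 5 reads in vector, 52 in HEB, 164 in E2A and 314 in E2-2, and was 9.80-fold (3.94 to 31.5), 29.0-fold (12.2 to 90.4) and 64.6-fold (27.4 to 200.3) higher. TRBV2 had 0, 40, 125 and 121 reads and TRBV6-6 had 0, 61, 115 and 99, with no read in vector, as for IGKV3OR2-268 and IGKV3D-7. TRBV9 had 43, 153, 140 and 87 and was highest in HEB. The segment called lower in E2A and HEB was TRAV8-5, an alpha segment chosen after its values were seen, with 58, 29, 31 and 30 reads. CD3D, a T cell receptor subunit, had 34, 15, 10 and 2 reads and was called lower in each.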
